A study of Mus musculus with 30 samples.

Results

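Potassium channels of the tandem-pore (K2P) and inward-rectifier (Kir) families were followed through 30 libraries of ribosome-associated RNA from the nucleus accumbens of female mice. The set holds 10 genes of the 55335 in the count table. It comprises 4 K2P genes (Kcnk1, Kcnk2, Kcnk3 and Kcnk9) and 6 Kir genes (Kcnj2, Kcnj3, Kcnj4, Kcnj6, Kcnj9 and Kcnj11). The genes were picked by symbol with earlier results of these data known, among them that Kcnk2 was 1 of 10 genes called between D2 Susceptible and D2 Resilient libraries. That comparison is therefore given for these genes as a description, with no test. All 10 genes passed the filter on low counts.

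Polyribosomes were precipitated through an HA tag from D1-Cre-RT mice, where Cre marks cells with the dopamine receptor D1, and from A2A-Cre-RT mice, where it marks cells with the adenosine receptor A2A. Medium spiny neurons of the second kind also carry the dopamine receptor D2, and their libraries are called D2, as in the sample titles. The stress was the chronic witness defeat paradigm (CWDS), in which a mouse watches another being defeated. Stressed mice were sorted by social interaction into Resilient and Susceptible, and Control mice carry the treatment label Control in place of CWDS. The 6 groups (D1 Control, D1 Resilient, D1 Susceptible, D2 Control, D2 Resilient, D2 Susceptible) held 5 libraries each, and every library pooled 4 mice with similar interaction scores, taken 24 h after the interaction test. All groups carry the tag and a Cre, and D1 and D2 libraries come from different lines, so that line and neuron class cannot be told apart. No age is given in the sources used here. Because Cre decides which cells are tagged, other cells that express the driver, and RNA that sticks to the beads, can also be read.

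Gene counts summed to between 28996168 and 65882152 per library. D2 Susceptible replicates 1 and 2 stood apart, with 15822 and 16525 genes holding a count against 19440 to 22375 in the other 28 libraries. In D1 Susceptible replicate 1 a single gene, Gm42418, took 54.9% of the gene counts. The sum of D2 markers followed the labels. Of 6 D2 markers listed, 5 were found by symbol, led by Drd2 and Penk. They summed to 4867 to 12799 CPM (each count scaled to library size with TMM factors) in D2 libraries and 1120 to 2771 CPM in D1 libraries. The 7 D1 markers summed to 1736 to 2609 CPM in D1 libraries and 281 to 1858 CPM in D2 libraries. The highest D2 values were in D2 Resilient replicate 5 (1858 CPM) and D2 Control replicate 5 (1236 CPM). The classes overlapped in this sum, since D2 Resilient replicate 5 lay above the lowest D1 library.

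K2P channels pass a potassium leak that helps to hold the resting membrane potential and sets how easily a neuron is driven to fire. Kir channels pass inward current more readily than outward current and, in medium spiny neurons, are known for the hyperpolarised resting state between episodes of excitatory drive. Kir channels of the GIRK branch are opened by G protein subunits released from inhibitory receptors, and those of the KATP branch close when ATP is plentiful.

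Upstream sequence is shown for the genes with the clearest class differences that the RefSeq promoter table (GRCm38.p6) held, since these windows lie before the starts of genes whose counts differed between the classes. The table matched 7 of the 10 genes with 11 start windows; Kcnk3, Kcnk9 and Kcnj11 were not matched. Each window is the 250 bases before an annotated start, 5′ to 3′ on the strand of the gene. Capitals mark matches on either strand to any of 3 motifs. The first is the GC box, searched as GGGCGG. The next is the core of the cyclic AMP response element (CRE core), searched as TGACG. The last is the TATA box, searched as TATAAA.
Kcnk2, chr1:189402274-189402523, minus strand: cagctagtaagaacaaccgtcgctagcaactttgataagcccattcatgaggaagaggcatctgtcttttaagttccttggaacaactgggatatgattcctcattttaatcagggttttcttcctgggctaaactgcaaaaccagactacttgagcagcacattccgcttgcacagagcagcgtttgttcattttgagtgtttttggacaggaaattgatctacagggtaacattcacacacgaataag
Kcnj9, chr1:172329323-172329572, minus strand: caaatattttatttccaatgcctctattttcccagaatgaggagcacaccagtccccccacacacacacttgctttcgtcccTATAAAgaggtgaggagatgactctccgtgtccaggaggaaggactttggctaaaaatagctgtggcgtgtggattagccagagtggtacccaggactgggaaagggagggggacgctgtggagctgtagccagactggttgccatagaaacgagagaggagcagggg
Kcnj3, chr2:55435720-55435969, plus strand: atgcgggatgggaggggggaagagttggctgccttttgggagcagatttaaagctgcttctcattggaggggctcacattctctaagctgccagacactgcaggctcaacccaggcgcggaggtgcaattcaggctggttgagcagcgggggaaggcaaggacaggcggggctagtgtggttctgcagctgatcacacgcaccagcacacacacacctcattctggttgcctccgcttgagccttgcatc
Kcnj4, chr15:79505242-79505491, minus strand: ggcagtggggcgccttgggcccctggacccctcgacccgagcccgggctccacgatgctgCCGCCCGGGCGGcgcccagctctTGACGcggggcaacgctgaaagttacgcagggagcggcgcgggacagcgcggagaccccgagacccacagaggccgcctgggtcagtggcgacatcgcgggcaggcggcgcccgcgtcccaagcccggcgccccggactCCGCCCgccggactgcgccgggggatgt

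The Kcnk2 window is the outermost of 4 that RefSeq gives for the gene, and gene counts do not tell which start was used. It held none of the 3 capitalised motifs, and neither did the Kcnj3 window, which overlaps an exon of Gm26794 on the opposite strand. The Kcnj9 window held 1 TATA box match. The Kcnj4 window held 3 GC box matches and 1 CRE core match. Over 32536 distinct windows of this length, 33.0% held a GC box match, 17.9% a CRE core match and 12.3% a TATA box match. The Kcnj4 window was also rich in G and C, at 77.2% with 35 CpG sites, against 42.4% with 5 CpG sites for the Kcnk2 window shown, 52% with 5 for Kcnj9 and 58.4% with 7 for Kcnj3. The other 3 Kcnk2 windows had 53.2%, 74.4% and 70.4% G and C with 2, 27 and 28 CpG sites, and the first of the G and C rich pair held 1 GC box match. The median window had 52.4% G and C and 6 CpG sites. Searches for CANNTG (E box) found 2 matches in the Kcnk2 window, 1 each in the Kcnj9 and Kcnj3 windows and none in the Kcnj4 window, where 66.2% of all windows held one. No match to GCGTGGGCG (EGR site) was found in the 4 windows, and 0.541% of all windows held one. No matches to different motifs overlapped in these windows.

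Levels were compared between genes as CPM per kb of merged exons. Kcnj4, which encodes the strong inward rectifier Kir2.3, was the highest of the 10 in every group, with 122 ± 12.3 CPM per kb (SD, n = 5) in D1 Control and 159 ± 19.8 CPM per kb in D2 Control libraries. Kcnk2, which encodes the mechanosensitive and lipid-sensitive leak channel TREK-1, came second in all groups, at 31.5 ± 3.91 CPM per kb in D1 Control and 53.6 ± 5.83 CPM per kb in D2 Control. In D1 Control its libraries overlapped those of Kcnk1, the third gene, and in D2 Control they did not.

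In D1 Control the middle of the order was Kcnk1 at 24.2, Kcnj9 at 20.2, Kcnj3 at 17.5, Kcnj11 at 12.1 and Kcnj2 at 12.04 CPM per kb. Neighbours from Kcnj9 to Kcnj2 overlapped in their libraries. In D2 Control the same middle ran Kcnk1 at 18.9, Kcnj9 at 12.7, Kcnj11 at 11.9, Kcnj2 at 11.1 and Kcnj3 at 9.75 CPM per kb, with every neighbour overlapping. Kcnj3, the subunit GIRK1, thus stood above Kcnj11 and Kcnj2 in D1 Control and below them in D2 Control. The low end was the same in both classes. Kcnk3 (TASK-1) had 4.02 and 3.70, Kcnk9 (TASK-3) 2.88 and 1.34, and Kcnj6 (GIRK2) 0.379 and 0.183 CPM per kb, D1 Control before D2 Control. No neighbours among these 3 overlapped in either class, nor did Kcnk3 with the gene above it. Without division by length, 4 of the 10 genes kept their rank in each of the 2 groups. Kcnk9 then stood above Kcnk3 in both groups, and Kcnj3 above Kcnj11 in D2 Control, so these orders depend on the length used.

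**Figure D1:**
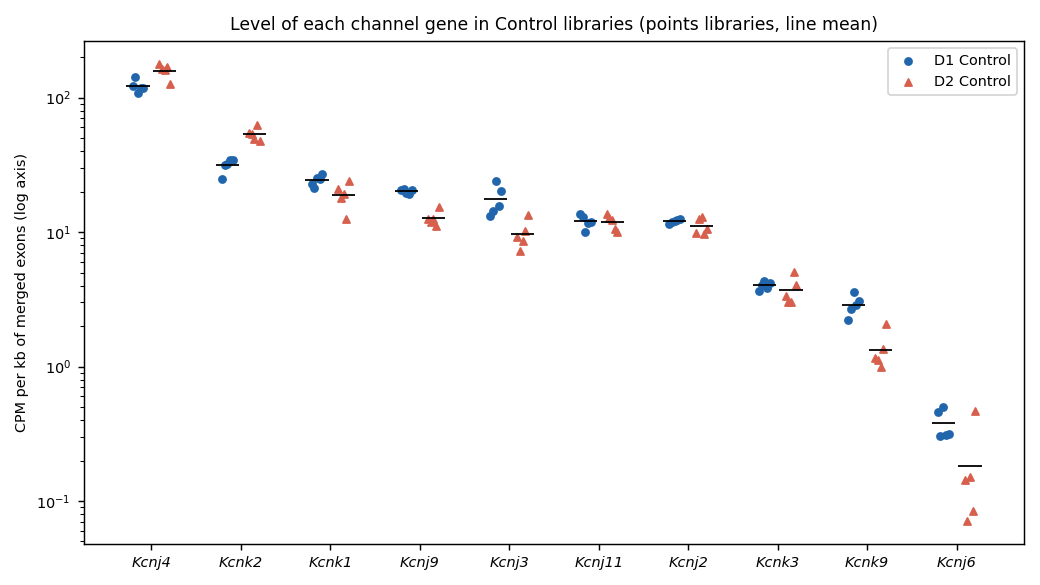
Level of the 10 channel genes in D1 Control (circles) and D2 Control (triangles) libraries, in CPM per kb of merged exons on a log axis. Points are libraries and lines are means of 5. Kcnj4 lay at the top, with means of 122 and 159, and Kcnj6 at the bottom, with means of 0.379 and 0.183.

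The comparison of D1 with D2 libraries asks how the neuron classes differ, and was made within each stress group. In Control libraries 5 of the 10 genes differed between the classes at an adjusted p under 0.05 (edgeR, Benjamini-Hochberg over 19368 genes), where 8.3% of all genes tested did. Kcnk9, Kcnj3 and Kcnj9 were higher in D1, and Kcnk2 and Kcnj4 were higher in D2. The median log2 difference (D1 minus D2) of the 10 genes was 0.24, against -0.0028 over all genes tested. In Resilient libraries 5 of the 10 were called, 4 higher and 1 lower in D1, where 6.65% of all genes were. In Susceptible libraries 5 were called, 4 higher and 1 lower in D1, where 23.9% of all genes were. Kcnk2, Kcnk9, Kcnj3 and Kcnj9 were called in all 3 stress groups, each in the same direction, but for Kcnk2 the D2 Resilient and D2 Susceptible values are also those that chose the set. The 5 libraries of one class lay wholly above the 5 of the other for 3 of the 10 genes in Control, 6 in Resilient and 3 in Susceptible libraries, where 11.7%, 9.7% and 8.92% of all genes tested separated so.

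Among the leak channels, Kcnk2 had the opposite class preference to Kcnk9. Kcnk2 counts in D1 Control were 123, 155, 159, 170 and 171 CPM, and in D2 Control 271, 264, 242, 309 and 237 CPM. D1 Resilient libraries held 175, 158, 164, 164 and 181 CPM and D2 Resilient libraries 262, 224, 227, 251 and 190 CPM. All 15 D1 libraries lay between 123 and 181 CPM, below all 15 D2 libraries, which lay between 190 and 449 CPM; 1.18% of all genes tested separated the 15 and 15 libraries, in either direction. The log2 difference, D1 minus D2, was -0.77 (SE 0.121, adjusted p = 6.72e-05) in Control, which is 1.70-fold lower in D1. It was -0.46 (SE 0.120, adjusted p = 0.0148) in Resilient and -1.12 (SE 0.122, adjusted p = 1.81e-07) in Susceptible libraries. The last 2 comparisons use the D2 values that chose the set, so their tests are not independent of that choice, and neither is the separation of the 15 and 15 libraries. The Control comparison uses neither of those groups' values for its difference. The Resilient call was lost, at adjusted p between 0.0510 and 0.0625, when D1 Resilient replicate 2 or 3 or D2 Resilient replicate 1 or 4 was left out. In Susceptible libraries the difference was -0.82 (adjusted p = 1.91e-06) with D2 Susceptible replicates 1 and 2 both left out.

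Kcnk9, an acid-sensitive leak channel, was measured in D1 Control at 27.3, 33.1, 43.8, 35.1 and 37.9 CPM and in D2 Control at 14.3, 13.6, 12.2, 16.5 and 25.6 CPM. All 15 D1 libraries (27.3 to 43.8 CPM) lay above all 15 D2 libraries (12.1 to 25.6 CPM), as 1.18% of all genes separated, in either direction. D2 Control replicate 5 was the highest D2 library. The log2 difference was 1.10 (SE 0.167, adjusted p = 3.63e-05) in Control, 0.83 (adjusted p = 0.000996) in Resilient and 0.96 (adjusted p = 0.000124) in Susceptible libraries, a 2.15-fold higher mean in D1 Control. Per kb, the ratio of Kcnk2 to Kcnk9 within a library was 11.0 ± 1.17 (SD, n = 5) in D1 Control and 42.8 ± 11.1 in D2 Control. Across the groups it ran from 9.04 to 15.3 in D1 libraries and from 23.0 to 74.8 in D2 libraries. That the classes did not overlap in this ratio follows from the separation of each gene and adds no support. Its D2 Resilient and D2 Susceptible values also use the Kcnk2 values that chose the set.

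Kcnk3, the relative of Kcnk9 with which it can form mixed channels, was measured in D1 Resilient at 18.1, 19.7, 17.9, 20.4 and 17.1 CPM and in D2 Resilient at 8.54, 13.4, 9.72, 14.0 and 9.65 CPM. These groups did not overlap. The log2 difference was 0.75 (SE 0.167, adjusted p = 0.00318). It was 0.12 (adjusted p = 0.798) in Control, with means of 16.0 and 14.7 CPM, and 0.18 (adjusted p = 0.455) in Susceptible libraries. The Susceptible value depended on the tool and the libraries. By limma voom it was 0.59 (adjusted p = 0.00318). By edgeR without D2 Susceptible replicates 1 and 2 it was 0.45 (adjusted p = 0.0848). The D1 minus D2 difference was not shown to change between Control and Resilient (0.63, SE 0.236, adjusted p = 0.853; unadjusted p = 0.0116). Kcnk3 counts are uncertain, since Gm9899 overlaps its exons on the opposite strand with 121 to 923 counts per library, against a lowest Kcnk3 count of 167, and the strand setting of the counting is not given in the sources used here. Kcnk2 also has such a partner, A430027H14Rik, but at 17 to 252 counts against at least 1527 for Kcnk2.

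Kcnk1, the weakly conducting leak channel TWIK-1, ran from 44.0 to 61.0 CPM (median 49.0) in D1 and from 23.7 to 55.1 CPM (median 42.7) in D2 libraries. It did not pass the test in Control (log2 difference 0.36, adjusted p = 0.210), Resilient (0.17, adjusted p = 0.791) or Susceptible libraries (0.43, adjusted p = 0.0512). The Susceptible value was 0.17 without D2 Susceptible replicates 1 and 2, and 0.34 to 0.66 with 1 library left out. It was called in 4 of those 10 fits, without D1 Susceptible replicate 4 or 5 or D2 Susceptible replicate 3 or 5, and by DESeq2 (0.43, adjusted p = 0.0364). DESeq2 size factors within edgeR (0.43, adjusted p = 0.0460) and a replicate block (0.47, adjusted p = 0.0343) also called it. Not calling it were limma voom (0.27, adjusted p = 0.0965), edgeR with no filter (0.45, adjusted p = 0.0567) and edgeR on only the groups compared (0.44, adjusted p = 0.235).

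**Figure D2:**
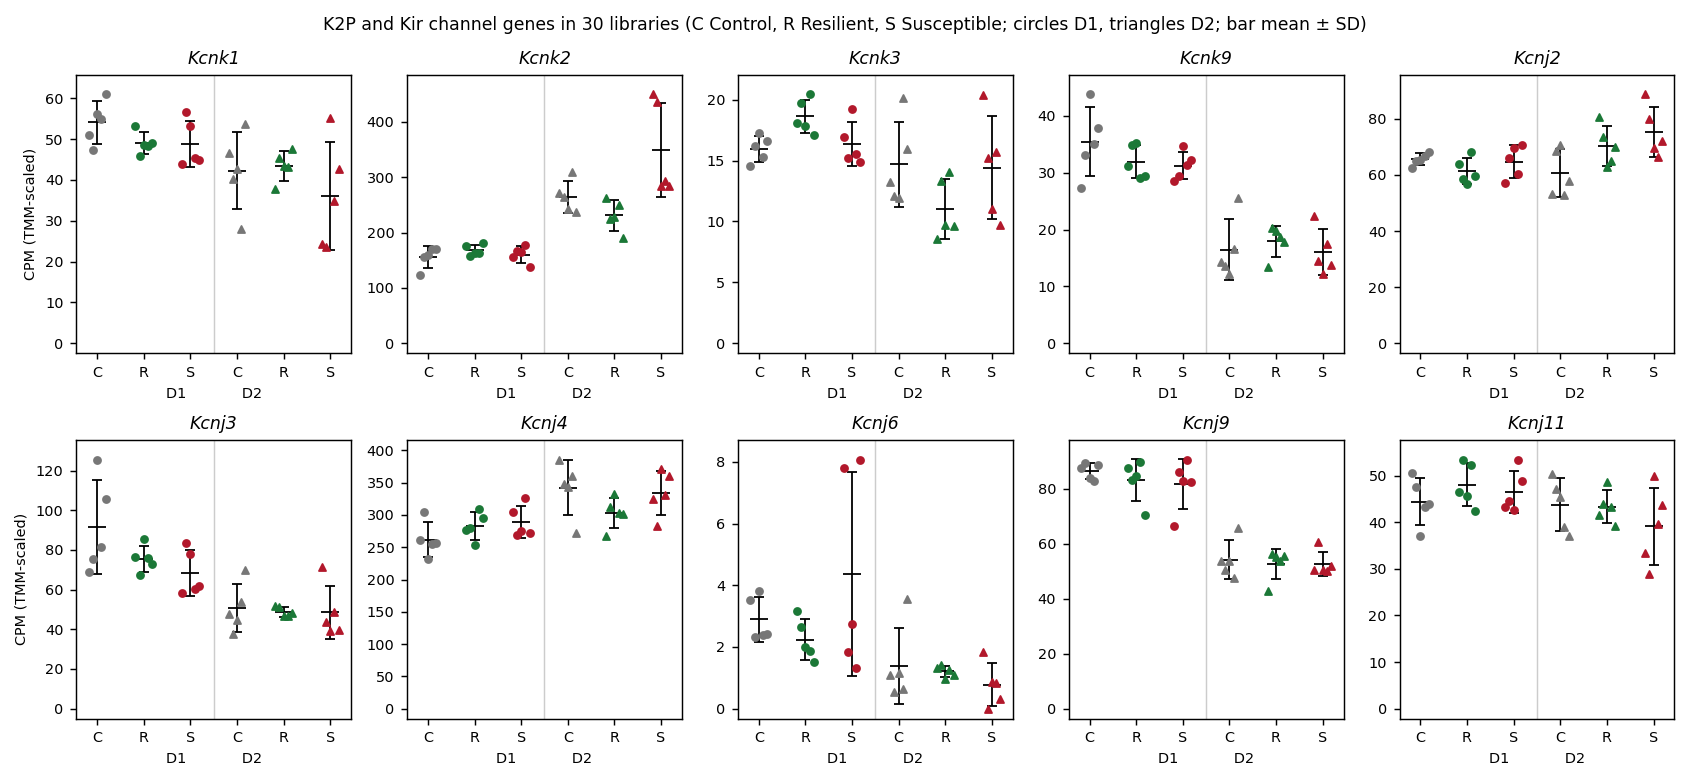
CPM (TMM-scaled) of each channel gene in the 30 libraries, by class (circles D1, triangles D2) and stress group (C Control, R Resilient, S Susceptible); bars are mean ± SD of 5. Kcnk9 and Kcnj9 lay higher in all D1 than in all D2 libraries and Kcnk2 lay lower, with 2 D2 Susceptible libraries at 449 and 436 CPM. Of all genes tested, 1.18% separated the classes so, in either direction. The D2 Resilient and D2 Susceptible values of Kcnk2 are those that chose the set.

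Of the GIRK subunits, Kcnj9 (GIRK3) differed between the classes by much the same amount in each stress group. Its D1 Control libraries held 87.8, 89.6, 83.9, 82.8 and 88.6 CPM and its D2 Control libraries 53.6, 50.6, 53.8, 47.6 and 65.9 CPM. All 15 D1 libraries (66.5 to 90.7 CPM) lay above all 15 D2 libraries (42.8 to 65.9 CPM). Of all genes tested, 1.18% separated the 15 and 15 libraries, in either direction. The log2 difference was 0.67 (SE 0.0933, adjusted p = 1.04e-05) in Control, 0.66 (adjusted p = 1.30e-05) in Resilient and 0.64 (adjusted p = 1.55e-05) in Susceptible libraries. It was called in each of the 10 fits per stress group that left out 1 library, with values of 0.59 to 0.77.

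Kcnj3 (GIRK1), the subunit that lends GIRK channels their high conductance but needs a partner to reach the membrane, was measured in D1 Control at 69.1, 75.5, 125, 81.5 and 106 CPM and in D2 Control at 47.9, 37.8, 44.9, 53.6 and 70.1 CPM. The highest D2 library, replicate 5, overlapped the lowest D1 library. In Resilient libraries the groups did not overlap, with 67.4 to 85.6 CPM in D1 and 46.6 to 51.7 CPM in D2. The log2 difference was 0.85 (SE 0.163, adjusted p = 0.000788) in Control, 0.63 (adjusted p = 0.0127) in Resilient and 0.50 (adjusted p = 0.0265) in Susceptible libraries. The Susceptible call was lost without D1 Susceptible replicate 2 or 3 or D2 Susceptible replicate 2 (adjusted p = 0.0657, 0.0533 and 0.0532), and it was 0.71 (adjusted p = 0.00546) without D2 Susceptible replicates 1 and 2. Per kb, Kcnj3 stood to Kcnj9 as 0.872 ± 0.238 (SD, n = 5) to 1 in D1 Control and 0.767 ± 0.130 to 1 in D2 Control, so the ratio of these subunits overlapped between the classes.

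Kcnj6 (GIRK2), which can form channels without another subunit and is prominent in midbrain dopamine neurons, was scarce here. It summed to 791 counts over the D1 Control libraries and 438 over the D2 Control libraries. D1 Control held 3.51, 2.33, 3.82, 2.38 and 2.40 CPM and D2 Control 1.10, 0.543, 1.15, 0.640 and 3.54 CPM. In D1 Susceptible it was spread widely, at 7.81, 1.84, 2.76, 1.32 and 8.07 CPM, and in D2 Susceptible it held 1.85, 0, 0.860, 0.827 and 0.324 CPM. The log2 difference was 1.05 (SE 0.612, adjusted p = 0.373) in Control, 0.89 (adjusted p = 0.618) in Resilient and 2.49 (SE 0.645, adjusted p = 0.00606) in Susceptible libraries. The Susceptible groups overlapped, since D1 replicate 4 lay below D2 replicate 1, and D2 replicate 2 had no count. The high D1 Susceptible values were those of replicates 1 and 5, which were also the libraries of that group with the most Gm42418 (54.9% and 5.46% of gene counts); whether this bears on Kcnj6 was not tested. The difference was 2.13 to 3.11 with 1 library left out, highest without D2 Susceptible replicate 1. It was not called when only those 10 libraries were fitted (2.50, adjusted p = 0.133).

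The Kir2 genes encode the strong rectifiers of medium spiny neurons. Kcnj4 was measured in D1 Control at 261, 305, 232, 255 and 256 CPM and in D2 Control at 386, 349, 343, 361 and 272 CPM. Only D2 Control replicate 5 fell within the D1 range. The log2 difference was -0.39 (SE 0.0918, adjusted p = 0.00622) in Control, 1.31-fold lower in D1. It was -0.10 (adjusted p = 0.787) in Resilient and -0.21 (adjusted p = 0.0964) in Susceptible libraries. The change of this difference from Control did not pass the test in either (adjusted p = 0.954 and 0.704). By limma voom the Susceptible difference was -0.34 and was called (adjusted p = 0.00342). Kcnj2 (Kir2.1) ran from 56.6 to 70.8 CPM in D1 and 53.0 to 88.7 CPM in D2 libraries, with log2 differences of 0.11 (adjusted p = 0.599) in Control, -0.20 (adjusted p = 0.295) in Resilient and -0.22 (adjusted p = 0.0897) in Susceptible libraries. Kcnj4 exceeded Kcnj2 per kb by 10.1 ± 1.14 times (SD, n = 5) in D1 Control and by 14.5 ± 3.02 times in D2 Control.

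Kcnj11 (Kir6.2), the pore of neuronal KATP channels, had nearly the same mean in D1 Control (44.5 ± 5.12 CPM, SD, n = 5) and D2 Control (43.8 ± 5.63 CPM). Its log2 difference was 0.02, with a range of 2 SE either side from -0.21 to 0.25. It was 0.15 (adjusted p = 0.695) in Resilient and 0.25 (adjusted p = 0.118) in Susceptible libraries, and the last was 0.09 without D2 Susceptible replicates 1 and 2 and 0.38 (adjusted p = 0.0145) without replicate 3.

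**Figure D3:**
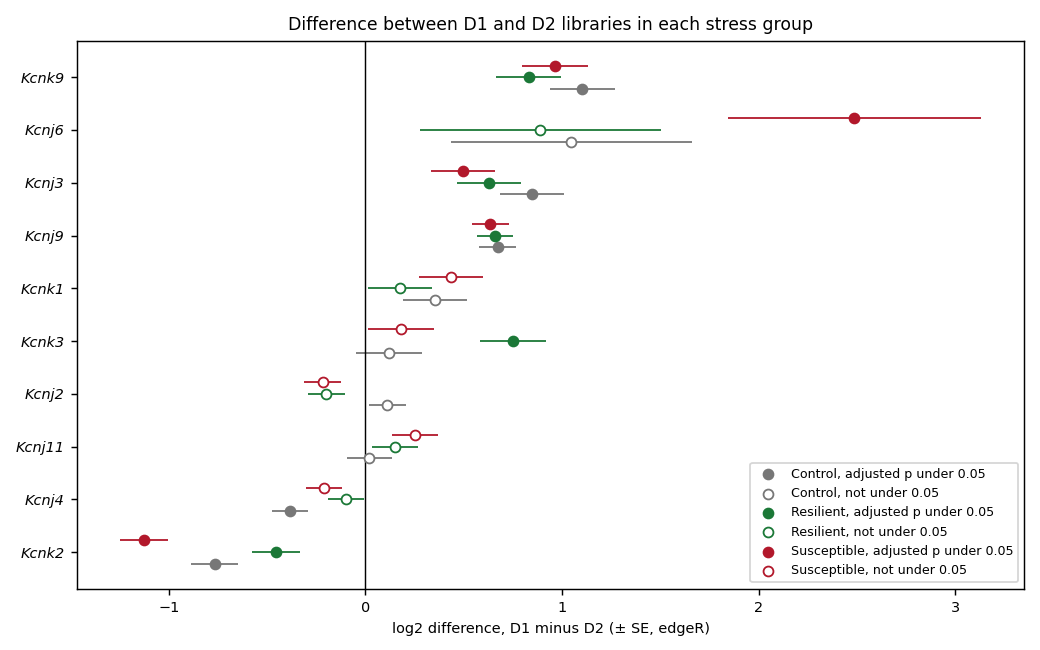
Log2 difference between D1 and D2 libraries (D1 minus D2, ± SE, edgeR) for each channel gene in Control, Resilient and Susceptible libraries; filled points have an adjusted p under 0.05. Kcnk2 lay left of 0 in all 3 groups (-0.77, -0.46 and -1.12), and Kcnk9, Kcnj3 and Kcnj9 lay right of 0 in all 3. The Resilient and Susceptible points of Kcnk2 use the D2 values that chose the set, so their tests are not independent of that choice.

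Markers of other cells also differed between the classes, where 8.3% of all genes tested were called in Control libraries. In Control libraries, 5 of 8 interneuron markers and 5 of 8 glutamatergic neuron markers were higher in D1, with summed levels of 339 to 502 CPM and 729 to 978 CPM in D1 against 97.6 to 294 CPM and 358 to 567 CPM in D2. All 8 endothelial, 5 of 8 mural and 5 of 8 astrocyte markers were higher in D2, with summed levels of 170 to 322, 158 to 266 and 517 to 804 CPM in D2 against 16.3 to 36.4, 16.9 to 35.0 and 367 to 835 CPM in D1. Among these markers Acta2, a mural gene, was at 0 in D1 Control replicate 5, and none of the others was at 0 in a Control library. The part of these cells in the channel differences was not tested, and in such bulk samples fewer cells of a type and less RNA per cell cannot be told apart.

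D2 Control replicate 5 held the most interneuron and glutamatergic marker RNA of the D2 Control libraries (294 and 567 CPM). It was also the highest of them for Kcnk1, Kcnk9, Kcnj3, Kcnj6 and Kcnj9 and the lowest for Kcnj4, Kcnj11 and Kcnk2. D2 Resilient replicate 5 had the most RNA of the D1 markers, a different list, among the D2 libraries. It held 17.8 CPM of Kcnk9, 48.0 CPM of Kcnj3 and 55.4 CPM of Kcnj9, inside the range of the other D2 Resilient libraries. It had the lowest Kcnk2 (190 CPM) and Kcnj11 (39.2 CPM) and the highest Kcnk1 (47.5 CPM) of its group. Whether the marker RNA of these libraries bears on the channel values was not tested. Without D2 Control replicate 5 the same 5 genes were called in Control.

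Of 10 other K2P genes, 7 passed the filter on low counts and 0 were called between the classes in Control, where 8.3% of all genes were. By edgeR, 1 had an unadjusted p under 0.05, where 20% of all genes did, and the median log2 difference was 0.58. Kcnk10 and Kcnk4, the closest relatives of Kcnk2, averaged 2.75 and 1.36 CPM in the D1 and 1.83 and 1.13 CPM in the D2 Control libraries. Of 11 other Kir genes and KATP subunits, 8 were tested and 3 were called lower in D1, beside the same 8.3% of all genes. The median of the 8 was -0.57. Kcnj8 and Abcc9, which together form the KATP channel of mural cells and also stand in the mural marker list, were lower in D1 by log2 differences of -4.36 (adjusted p = 7.47e-07) and -3.43 (adjusted p = 5.19e-05). Kcnj16, a glial partner of Kcnj10, was lower by -1.44 (adjusted p = 0.0157), while Kcnj10 itself had -0.74 (adjusted p = 0.186), with a D1 mean of 13.3 CPM and a D2 mean of 22.3 CPM. Abcc8, the sulfonylurea receptor that pairs with Kcnj11 in neurons, had 10.0 and 9.07 CPM. Kcnj12, another Kir2 gene, had 10.1 and 9.96 CPM. Kcnj5, a further GIRK gene, had 1.75 and 0.723 CPM (log2 difference 1.27, adjusted p = 0.168), and was called in Susceptible libraries (2.13, adjusted p = 0.00704). Kcnj5 was scarce, and D2 Susceptible replicate 2, a library with few genes counted, had no count of it.

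Genes that act on GIRK and leak channels moved in both directions. Of 23 regulators tested in Control, 3 were called higher in D1 and 4 lower, with a median of 0.029. The share of all genes tested that were called there, in either direction, was 8.3%. The G protein subunit genes Gnai1 (270 and 158 CPM), Gnb4 (100 and 42.4 CPM) and Gng2 (112 and 49.1 CPM) were higher in D1. Gnb5, the partner of the RGS proteins that speed GIRK closure, was lower in D1 at 333 against 489 CPM (log2 difference -0.56, adjusted p = 8.62e-06). Rgs7bp, which anchors those RGS proteins, had 580 and 707 CPM (-0.29, adjusted p = 0.460), and Snx27, a sorting protein that binds Kcnj9, had 161 and 161 CPM (0.0038, adjusted p = 0.987). Of 15 receptors that can open GIRK channels, 6 were called higher in D1 and 1, Drd2, lower, beside the same 8.3% of all genes. The median of the 15 was 0.53. Cnr1, the cannabinoid receptor, had 133 against 55.0 CPM (1.27, adjusted p = 1.15e-05). Htr1a, a serotonin receptor, had 13.4 against 5.13 CPM (1.38, adjusted p = 7.34e-05), and Gabbr2, a subunit of the GABA-B receptor, 150 against 92.4 CPM (0.70, adjusted p = 9.18e-05). Drd2 marks the D2 class itself, and Chrm4, which enters the median but was not called (1.88, adjusted p = 0.0724), is also in the D1 marker list.

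The stress comparisons within a class asked whether the channels changed with CWDS. None of the 10 genes was called by edgeR between Control and Resilient, Control and Susceptible, or Resilient and Susceptible libraries of D1, where 0% of all genes tested were called in each. At an unadjusted p under 0.05 the counts were 0, 1 and 0, where 2.6%, 2.4% and 3.49% of all genes were. By DESeq2 and limma voom, adjusted, the counts were 0 in all 3. The single unadjusted value was Kcnj3, whose means were 91.5 ± 23.5 CPM (SD, n = 5) in D1 Control, 75.6 ± 6.62 CPM in D1 Resilient and 68.4 ± 11.5 CPM in D1 Susceptible libraries. D1 Susceptible libraries held 58.0, 83.3, 78.1, 60.5 and 61.9 CPM, which overlapped the Control libraries. The Susceptible minus Control log2 difference was -0.42 (SE 0.163, unadjusted p = 0.0154, adjusted p = 1.00).

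In D2 libraries no channel gene was called between Resilient and Control, where 0% of all genes were. Kcnk3 and Kcnj2 were the 2 channel genes at an unadjusted p under 0.05, where 4.2% of all genes were, and neither DESeq2 nor limma voom called any of the 10. Kcnk3 had 13.3, 12.1, 11.9, 20.2 and 16.0 CPM in D2 Control, against the D2 Resilient values given above. The groups overlapped, and the log2 difference was -0.41 (SE 0.167, adjusted p = 1.00). Kcnj2 had 53.2, 68.7, 70.7, 53.0 and 57.7 CPM in D2 Control and 80.7, 73.5, 62.7, 64.9 and 69.9 CPM in D2 Resilient libraries, which also overlapped (0.21, SE 0.0933, adjusted p = 1.00).

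Between D2 Susceptible and D2 Control, 0 of the 10 genes were called, where 0.00516% of all genes (1 gene) were. This comparison shares the D2 Susceptible libraries with the one through which the set was chosen. At an unadjusted p under 0.05 there were 2, Kcnk2 and Kcnj2, a share near the 15.7% of all genes. Kcnk2 had a log2 difference of 0.40 (SE 0.120, adjusted p = 0.159) and Kcnj2 of 0.31 (SE 0.0933, adjusted p = 0.159). Kcnj2 held 88.7, 80.1, 69.4, 66.3 and 72.1 CPM in D2 Susceptible libraries, and 2 of these lay within the D2 Control range. DESeq2 called Kcnj2 (0.33, adjusted p = 0.0486), and limma voom called none. With D2 Susceptible replicate 3 left out, edgeR called both Kcnk2 (0.46, adjusted p = 0.0390) and Kcnj2 (0.34, adjusted p = 0.0481). With replicates 1 and 2 left out, Kcnk2 had 0.11 (adjusted p = 1.00) and Kcnj2 0.18 (adjusted p = 0.913).

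Kcnk2 in D2 Susceptible libraries was measured at 449, 436, 284, 293 and 284 CPM, and the high values were those of replicates 1 and 2, the libraries with the fewest genes counted. The D2 Susceptible mean was 349 ± 85.5 CPM (SD, n = 5), against 231 ± 27.8 CPM in D2 Resilient libraries. That difference is what chose the set: a log2 difference of 0.60 (SE 0.121), in a comparison with 10 genes called of 19368 (0.0516%). It was 0.31 with replicates 1 and 2 left out and 0.49 to 0.66 when any 1 library was left out. The other 9 genes had log2 differences of -0.65 (Kcnj6) to 0.38 (Kcnk3) between these groups.

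Kcnk1 and Kcnj11 were low in the same libraries in which Kcnk2 was high. D2 Susceptible libraries held 24.3, 23.7, 55.1, 34.9 and 42.7 CPM of Kcnk1 and 33.5, 28.9, 50.0, 39.6 and 43.8 CPM of Kcnj11. Replicates 1 and 2 averaged 24.0 CPM of Kcnk1 and 31.2 CPM of Kcnj11, and the other 3 averaged 44.3 and 44.5 CPM. Replicates 1 and 2 also carried epidermal marker RNA, at 376 and 584 CPM, against 28.0 to 56.7 CPM in the other 28 libraries. Whether these features bear on the channel values was not tested.

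**Figure D4:**
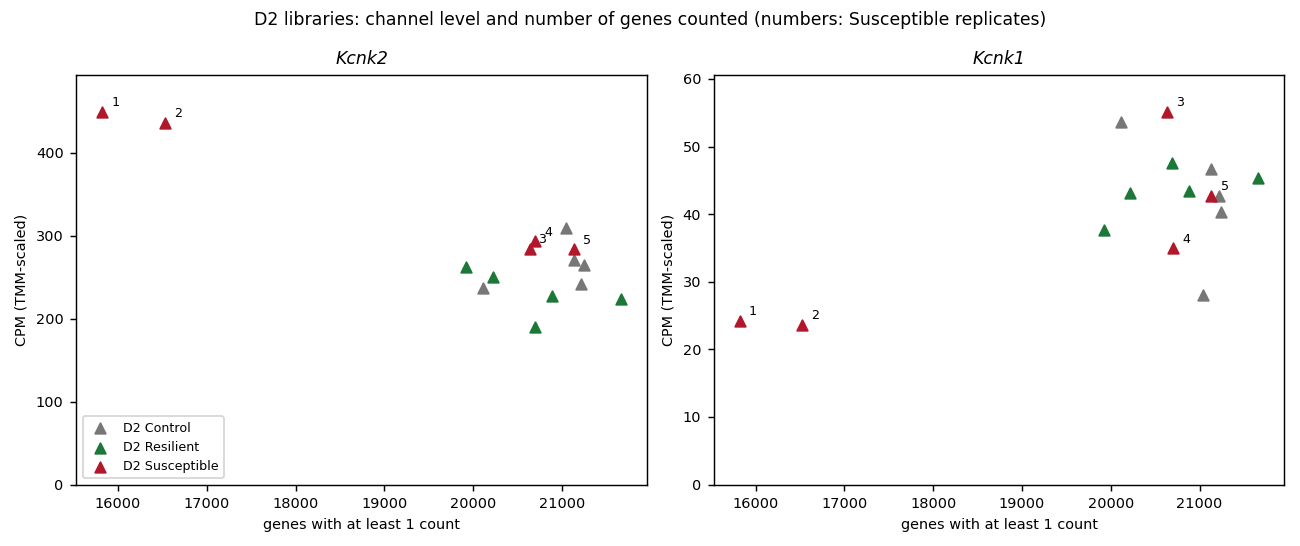
CPM of Kcnk2 (left) and Kcnk1 (right) in the 15 D2 libraries against how many genes were counted in each; numbers mark the D2 Susceptible replicates. Replicates 1 and 2 lie apart at 15822 and 16525 genes, with 449 and 436 CPM of Kcnk2 and 24.3 and 23.7 CPM of Kcnk1.

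Whether the stress change differed between the classes was tested directly. None of the 10 genes passed for Resilient against Control or for Susceptible against Control (edgeR), where 0% of all genes did, and DESeq2 and limma voom called none of the 10 either. At an unadjusted p under 0.05 there were 3 (Kcnk3, Kcnj2 and Kcnj4) and 2 (Kcnk2 and Kcnj2) of the 10, where 4.99% and 7.79% of all genes were. For Kcnk2 the D1 change minus the D2 change was 0.31 (SE 0.170, adjusted p = 1.00) for Resilient and -0.36 (SE 0.170, adjusted p = 0.637) for Susceptible, and the second shares the D2 Susceptible libraries. It was -0.065 without D2 Susceptible replicates 1 and 2. For Kcnj2 it was -0.31 (SE 0.132, adjusted p = 0.929) and -0.33 (SE 0.132, adjusted p = 0.637). The difference between the Susceptible and Resilient changes was not tested across classes.

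**Figure D5:**
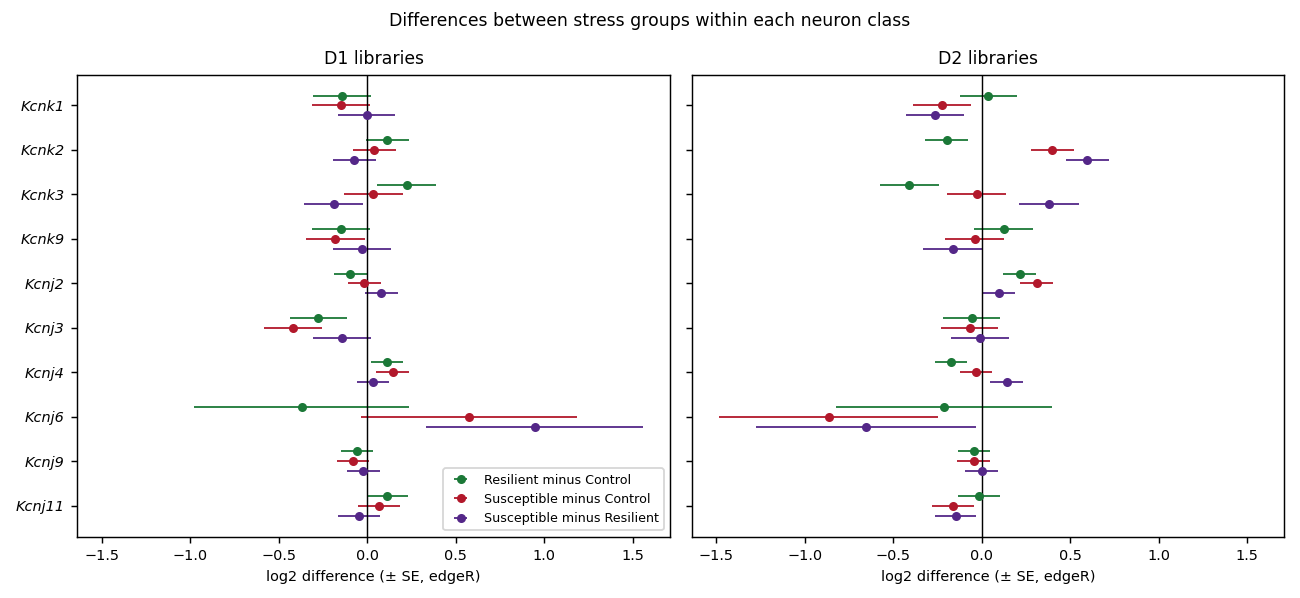
Log2 differences between stress groups (± SE, edgeR) for each channel gene within D1 (left) and D2 (right) libraries. The D1 points lie near 0 except for the scarce Kcnj6 and Kcnj3 (-0.42 for Susceptible minus Control), and the D2 point farthest to the right is Kcnk2 in Susceptible minus Resilient (0.60), the comparison that chose the set.

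For the genes that did not pass, the intervals show how wide the range of change was. For Kcnj9, the range of 2 SE either side of the Susceptible minus Control difference ran from -0.27 to 0.11 in D1 and from -0.23 to 0.14 in D2 libraries. For Kcnj6 it ran from -0.64 to 1.79 in D1 and from -2.10 to 0.38 in D2.

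Within groups, some of the channels moved together from library to library. Deviations of log2 CPM (prior count 2) from the group means over the 30 libraries correlated at r = 0.74 for Kcnk9 with Kcnj3, 0.70 for Kcnj4 with Kcnj11 and 0.66 for Kcnk3 with Kcnk9. Kcnk1 and Kcnk2 correlated at -0.62, Kcnj3 and Kcnj11 at -0.61 and Kcnj3 and Kcnj4 at -0.55. Without D1 Susceptible replicate 1 and D2 Susceptible replicates 1 and 2 these were 0.68, 0.68, 0.61, -0.45, -0.75 and -0.66. The points share library depth, composition and the cells each pool held, and the values are descriptions only.

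By the same measure, the genes most like each channel in their deviations were listed from all genes that passed the filter. For Kcnk2 they were Gab3 (r = 0.92), Limch1 (0.89) and Arglu1 (0.88), and for Kcnk1 they were Vps41 (0.92), Rhot1 (0.89) and Pak1 (0.89). For Kcnk3 they were Neurod2 (0.82), Cib2 (0.80) and Nfib (0.79), and for Kcnk9 they were Gng2 (0.86), Gpd2 (0.86) and Vxn (0.86). For Kcnj3 they were Opcml (0.89), Khdrbs3 (0.89) and Eps15 (0.87), and for Kcnj9 they were Tprgl (0.77), Gpd1l (0.73) and Whrn (0.73). For Kcnj4 they were Lrfn4 (0.91), Agap2 (0.90) and Stk11 (0.87), and for Kcnj11 they were Map3k10 (0.90), Cacnb1 (0.88) and Git1 (0.88). Across the channels the closest gene had an r of 0.77 to 0.92, lowest for Kcnj9. For Kcnj2 they were Inpp5f (0.80), Mbtps2 (0.73) and Tomm20 (0.73). For Kcnj6 the values fell most without the same 3 libraries: Zfp169 went from 0.89 to 0.73, Adra1a from 0.86 to 0.67 and Klhl11 from 0.85 to 0.63.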

How the data were processed

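Polyribosomes were precipitated with an antibody to HA and RNA was made into SMART-Seq v4 libraries from 10 ng, per the labels' protocols. Raw read counts per gene are what the authors deposited; HISAT2, HTSeq and GRCm38 (mm10) are named in the submitters' processing notes, without versions. The strand setting is not given in the sources used here. Symbols and coordinates come from GENCODE M21 on GRCm38, which named 55154 of 55335 genes. Lines that name no gene made up 10.1% to 53.3% of reads and were left out.

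The 10 genes and all gene lists were chosen with earlier results of these data known. Genes passing filterByExpr (minimum count 10, minimum total 15; 19368 genes) were tested with the edgeR 4.0.16 robust quasi-likelihood F test in R 4.3.3, with TMM scaling and 6 group means over 30 libraries, and adjusted by Benjamini-Hochberg at 0.05 within each comparison. Genes named outside the set are up to 4 called genes per list by adjusted p, 12 relatives and regulators listed by name, and the 3 genes most correlated with each channel. Alternatives were the Wald test of DESeq2 1.42.0, DESeq2 size factors in edgeR, limma 3.58.1 (voom with quality weights), no filter, only the groups compared, a replicate block, and leaving libraries out. The tests were tried on simulated counts. The labels speak of biological quintuplicates, pools of 4 mice each.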

Additional observations from a re-analysis of the deposited data

Results flagged for a closer look

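In 3 of the 60 gene and group combinations checked, 1 library stood apart from the other 4 of its group by Dixon's test; chance gives about 1 in 20. Kcnj6 in D2 Control was highest in replicate 5, at 3.54 CPM against a group median of 1.10 CPM. Kcnj9 in D2 Resilient was lowest in replicate 1, at 42.8 CPM against a median of 55.3 CPM. Kcnj9 in D2 Susceptible was highest in replicate 2, at 60.7 CPM against a median of 50.6 CPM.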

How the results depend on the processing

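No direction of a called channel gene reversed in the alternatives run. Between D1 and D2 Susceptible libraries, limma voom also called Kcnk3 and Kcnj4, which edgeR did not. The number of the 10 genes called between D1 and D2 was 8 in Control by limma voom and 3 in Susceptible when only the groups compared were fitted, against 5 in each by edgeR; it ran from 4 to 5 in Resilient and from 4 to 7 in Susceptible with 1 library left out. For D2 Susceptible minus Control it was 1 by DESeq2 and 0 to 2 with 1 library left out, against 0. In the comparison that chose the set, the Kcnk2 difference is a description with no test; it was 0.60 by edgeR, 0.36 by limma voom and 0.31 with D2 Susceptible replicates 1 and 2 both left out, and whether Kcnk2 was among the genes that could choose the set changed with the tool and the libraries. Over all genes, counts moved by over 1.5 times in some alternatives. Between D1 and D2 they were 5511 (Control) and 3412 (Resilient) by limma voom, 2696, 2184 and 915 (Susceptible) with only the groups compared, and 2123 (Susceptible) with both D2 libraries out, against 1608, 1288 and 4621. DESeq2 called 255 genes for D2 Susceptible minus Control and 976 for D2 Susceptible minus Resilient, against 1 and 10; the causes were not tested. With the replicate number as a block, 5, 5 and 6 of the 10 genes were called between D1 and D2 in Control, Resilient and Susceptible libraries. In the other comparisons tested 0 were called. For the block fit and the fits with 1 library left out, shares of all genes called are not given here beside these counts. The deviations showed no sign that the replicate numbers pair the libraries, though a lack of correlation cannot show that they do not. The median correlation of deviations was -0.0036 for same-numbered and 0.0013 for other pairs, and 2 of 30 libraries correlated best with their own number. Depth limits Kcnj6 most, at 0 to 440 counts per library.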
